A study of Homo sapiens with 42 samples.

Results

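The snaR RNAs are short non-coding transcripts of RNA polymerase III (Pol III) encoded by repeated gene copies, most of them on chromosome 19. They are known from transformed cell lines and from testis. POLR3G and POLR3GL are alternative subunits of Pol III, and transcription of snaR-A has been tied to the POLR3G form in cancer cells. The members were the 39 rows of the count table named snaR that are at most 500 bases long, of 175946 rows in all. Where such rows overlap, 1 row per place was counted, which left 28 loci of 113 to 128 bases.

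Small RNA was sequenced in THP-1, a monocytic leukaemia line in which the series describes POLR3G and POLR3GL knockout, as groups A4, A7, E4 and G8, and in libraries labelled mock. The labels describe mock as HEK293T, an embryonic kidney line, given 200 nM of a control antisense oligonucleotide (ASO). They do not say which of the 2 genes was targeted in which of A4, A7, E4 and G8, whether each is 1 clone, or whether the libraries of a group came from separate cultures, so a p-value speaks only of the spread among these libraries. Each group has 3 libraries with PNK and 3 without. PNK stands here for treatment with Antarctic phosphatase and polynucleotide kinase, an end repair that lets RNA pieces with blocked ends take an adapter. The unmodified THP-1 group labelled con and the HEK293T group given an ASO against POLR3G are not analysed here, and POLR3G and POLR3GL have no rows, so the loss of either was not measured.

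Rows that do not overlap held 5875999 to 8236080 reads per library with PNK and 9794001 to 13467713 reads without PNK. The cell labels were checked on miRNA of blood cells (MIR142, MIR223, MIR155 and MIR146A) and of epithelial cells (MIR200A, MIR200B, MIR200C, MIR141 and MIR429). Levels are given as CPM, read counts scaled to a common library size. Without PNK the 4 blood miRNA summed to 5522 to 7480 CPM in A4 and 7951 to 9618 in A7, and 7321 to 8126 in E4 and 943 to 6470 in G8, against 5019 to 7128 CPM in mock. The 5 epithelial miRNA summed to 20.8 to 26.6 CPM in A4, 51.9 to 64.0 CPM in A7, 48.9 to 52.8 CPM in E4 and 5.32 to 33.4 CPM in G8, against 27.9 to 39.9 CPM in mock. Without PNK the libraries labelled mock thus held blood miRNA at the level of A4, which goes against a kidney line. With PNK the same sum was 77.3 to 79.3 CPM in mock, within the range of G8, 37.1 to 123. It was higher in A4 at 166 to 296, in A7 at 280 to 540 and in E4 at 339 to 387. The mock libraries are called by their label throughout. Without PNK the libraries of G8 differed among themselves: the log2 CPM of library 3 correlated with those of libraries 1 and 2 at 0.898 and 0.912, against 0.978 between libraries 1 and 2. The TMM factors were 0.601 and 0.527 in libraries 1 and 2 and 1.03 in library 3, against 0.957 to 1.35 in the other groups.

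SNAR-G1 and SNAR-G2 can be read in the RefSeq sequence used here (GRCh38.p14) because they lie in the windows upstream of CGB1 and CGB2, genes of the chorionic gonadotropin beta subunit. They are printed to show the layout of a snaR gene. Capitals mark the match to GTTCNANNC, the letters of the B box, an internal promoter element of Pol III genes.
SNAR-G2: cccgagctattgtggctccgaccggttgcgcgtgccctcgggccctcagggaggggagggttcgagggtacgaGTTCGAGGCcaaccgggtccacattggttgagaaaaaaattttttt
SNAR-G1: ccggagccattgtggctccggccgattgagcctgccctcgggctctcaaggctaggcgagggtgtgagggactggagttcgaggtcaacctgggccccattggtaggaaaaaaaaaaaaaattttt
SNAR-G2 is the whole gene of 119 bases at chr19:49031669-49031787 on the minus strand, and its match lies at bases 74 to 82. SNAR-G1 is shown for 126 of its 128 bases, chr19:49037020-49037145 on the plus strand, and these letters have no match. Both strands were searched. GTTCNANNC occurs in 7.48% of 35116 RefSeq promoter windows of 300 bases. Both printed stretches end in a run of A followed by a run of T, the letter that marks a Pol III terminator. Each of the pair had 1 read over all 30 libraries.

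The family as measured was snaR-A. Over 30 libraries the 28 loci held 12202 reads, 6580 with PNK and 5622 without, of which the 14 snaR-A loci held 12086, or 99.0%. The 2 loci of snaR-B had 55 reads and the 5 of snaR-C had 39, while snaR-D and snaR-E had 8 each, snaR-G and snaR-H had 2 each, and snaR-F and snaR-I had 1 each. Of the 28 loci, 26 lie on chromosome 19, SNAR-H lies on chromosome 2 and SNAR-I on chromosome 3. None of the 28 was at 0 in all 30 libraries, but 13 had fewer than 30 reads each and 86 reads together. Among the subfamilies snaR-A alone passed the filter on low counts, so the total over the family is in effect a measure of snaR-A. Each locus coincides with a gene that RefSeq assigns to the same letter, and the table uses RefSeq's own gene name at 14 of the 28.

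**Figure D1:**
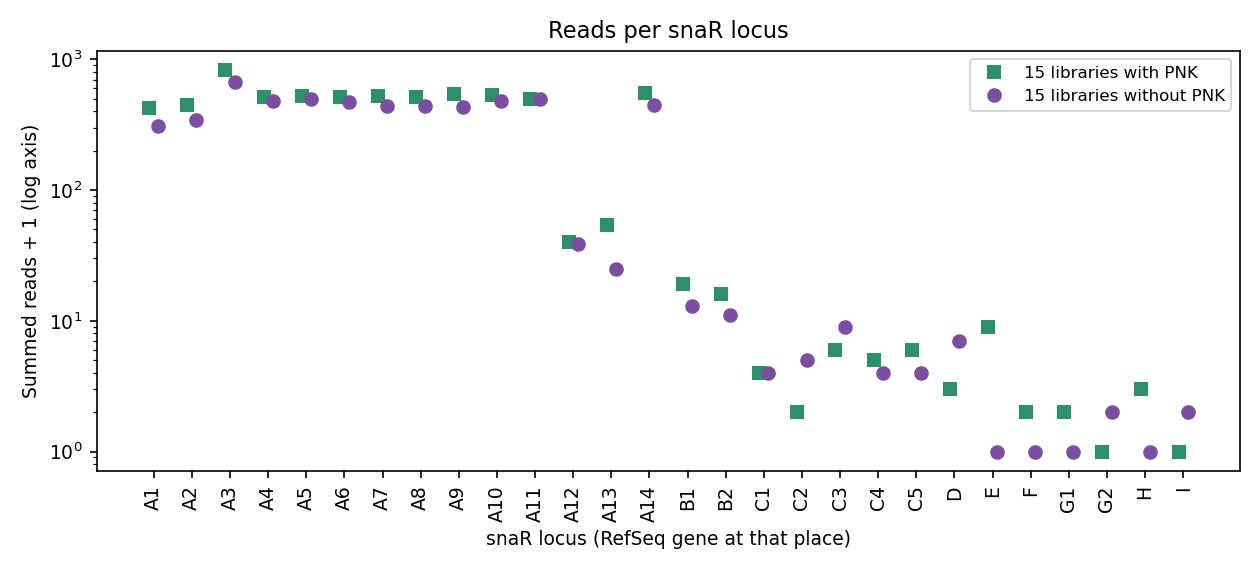
Reads summed over 15 libraries with PNK (squares) and 15 without PNK (circles) at each of the 28 snaR loci, plus 1 read so that 0 can be drawn, on a log axis, by the RefSeq gene at that place. The snaR-A loci other than A12 and A13 stand above all others.

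Near-identical copies shared their reads. In the cluster at chr19:50092495-50128522, 9 loci that the table names SNAR-A14 had 957 to 1023 reads each and together 73.0% of the family. Within a library their counts differed no more than an equal split with counting error would give: the chi-square summed over libraries was 231 on 240 degrees of freedom. A read total for 1 of these 9 genes is therefore uncertain, and only their sum is described. The highest single locus was at the place of RefSeq SNAR-A3, chr19:47923781-47923893 on the plus strand, with 1508 reads, 832 with PNK and 676 without. In the same cluster the loci at SNAR-A1 and SNAR-A2 had 734 and 786 reads, and those at SNAR-A12 and SNAR-A13 had 77 each. The highest rows of the other subfamilies were SNAR-B1 with 30 reads and SNAR-C3 with 13.

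Annotation of these places overlaps. The 10 wider snaR rows of 224 bases held 10416 reads, all but 4 of which fell in the narrow row inside. A row for the long non-coding RNA lnc-IZUMO2-2, which spans 54801 bases at chr19:50093426-50148226, had 8104 reads, and 98.4% of them lay in 11 snaR loci that make up 2.32% of its length. Counts also ignored strand. Of 348 small RNA rows that lie inside a row of the other strand, 348 had a count no higher than that wider row.

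With PNK, snaR reads were higher than in mock in A7 and E4. By the labels, every THP-1 group differs from mock in cell line, knockout and ASO together. In any comparison with mock these cannot be told apart. The snaR total reached 156.5, 58.0 and 74.2 CPM in A7 libraries 1, 2 and 3, and 135.4, 112.9 and 41.5 CPM in E4. It was 65.0, 69.5 and 39.6 CPM in A4 and 60.9, 56.1 and 43.8 CPM in G8, against 37.0, 27.2 and 31.2 CPM in mock. On this scale all 12 THP-1 libraries lay above all 3 mock libraries, by a narrow margin for A4 library 3 and E4 library 3. As CPM of library totals, with no TMM factor, A4 library 3 at 32.7 and E4 library 3 at 38.4 lay below mock libraries 1 and 3, at 40.6 and 40.3. The spread within A7 and E4 was wide, with A7 library 1 and E4 libraries 1 and 2 far above the other libraries of their groups.

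**Figure D2:**
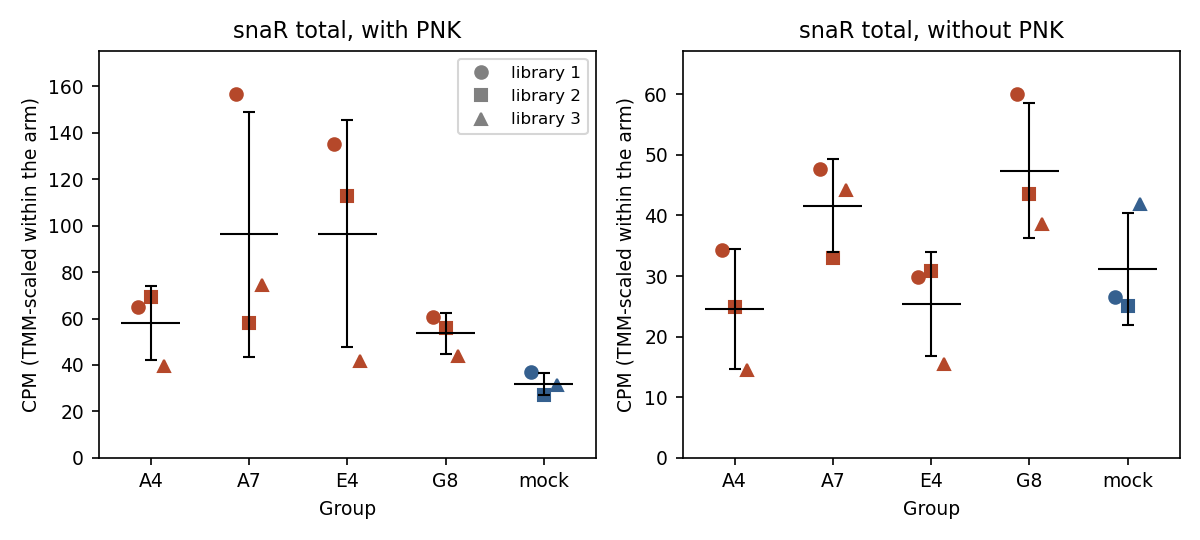
CPM of the snaR total in each library with PNK (left) and without PNK (right), scaled by TMM factors within the arm, with the mean and SD of 3 libraries as bars. The axes differ. With PNK and TMM factors all THP-1 libraries sit above 39, over the mock libraries at 27.2 to 37.0 CPM, while without PNK the groups overlap with mock.

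By edgeR's quasi-likelihood test with Benjamini-Hochberg adjustment over all features, the snaR total was 3.03-fold higher in A7 than in mock (95% interval 1.78 to 5.16), a log2 difference of 1.60 with SE 0.392 and adjusted p = 0.0207. In E4 it was 3.04-fold higher than in mock (1.78 to 5.18), a log2 difference of 1.60 with SE 0.392 and edgeR adjusted p = 0.0158. Of all features, 6.35% were called in A7 and 9.72% in E4, 3.81% and 5.95% as higher. For A4 the log2 difference from mock was 0.87 with SE 0.389 and edgeR adjusted p = 0.168, and for G8 it was 0.75 with SE 0.389 and edgeR adjusted p = 0.268. Neither passed the test, where 12.4% of features did in A4 and 7.83% in G8. Tested alone, snaR-A differed from mock by 1.64 in A7 (edgeR adjusted p = 0.0193) and by 1.65 in E4 (edgeR adjusted p = 0.0142) on the log2 scale.

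These calls rested on few libraries. Without A7 library 1 the A7 difference from mock was 1.06 (edgeR adjusted p = 0.142), without mock library 2 it was 1.50 (0.0897) and without mock library 3 it was 1.59 (0.0796). The E4 difference was 1.29 without E4 library 1 (edgeR adjusted p = 0.0828), 1.49 without E4 library 2 (0.0574), 1.52 without mock library 2 (0.0651) and 1.60 without mock library 3 (0.0555). Scaling by miRNA alone lowered both, to 0.39 in A7 (edgeR adjusted p = 0.349) and 0.45 in E4 (0.278), and moved the median of all features to -1.13 and -1.18. Relative to that median the differences were 1.52 in A7 and 1.63 in E4, against 1.61 and 1.62 with TMM factors. The sums of both marker lists were also above mock in A7 and E4, and in A4 too, where the snaR total was not called. The 4 blood miRNA summed to 280 to 540 CPM in A7, 339 to 387 in E4, 166 to 296 in A4 and 37.1 to 123 in G8, against 77.3 to 79.3 CPM in mock. The 5 epithelial miRNA summed to 2.07 to 3.71 CPM in A7, 1.68 to 2.22 CPM in E4, 0.793 to 1.39 CPM in A4 and 0.195 to 0.851 CPM in G8, against 0 to 0.527 CPM in mock. MIR141 was at 0 in A4, E4, G8 and mock, MIR429 at 0 in A4, A7, E4 and mock, and MIR200A at 0 in mock. The part of the marker miRNA in the snaR difference was not tested.

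Without PNK no group differed from mock by the test. A4 libraries 1, 2 and 3 held the snaR total at 34.4, 24.8 and 14.5 CPM, and A7 held it at 47.7, 33.0 and 44.2 CPM. It was 29.9, 30.8 and 15.5 CPM in E4 and 60.0, 43.6 and 38.6 CPM in G8, against 26.6, 25.1 and 41.8 CPM in mock. Every group overlapped with mock. Library 3 was the lowest of its group in A4, E4 and G8 and the highest in mock. The log2 differences from mock were -0.34 in A4 and 0.42 in A7, and -0.30 in E4 and 0.60 in G8, each with SE 0.37. By edgeR's quasi-likelihood test the adjusted p were 0.667 in A4 and 0.753 in A7, and 0.796 in E4 and 0.246 in G8. Called features made up 1.48% in A4 and 0.334% in A7, and 4.2% in E4 and 24.2% in G8. The 95% intervals ran from -1.07 to 0.38 in A4 and from -0.30 to 1.14 in A7, and from -1.02 to 0.43 in E4 and from -0.12 to 1.33 in G8. The intervals of A7 and G8 thus hold 0.75, the difference of G8 with PNK, and do not exclude a change of that size. Those of A4 and E4 lie below 0.75. With TMM factors each interval lies below 1.60, the difference of A7 and E4 with PNK. The differences with PNK carry their own error, and the interaction test of the arms, given below, did not pass. The arms are thus not shown to differ.

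**Figure D3:**
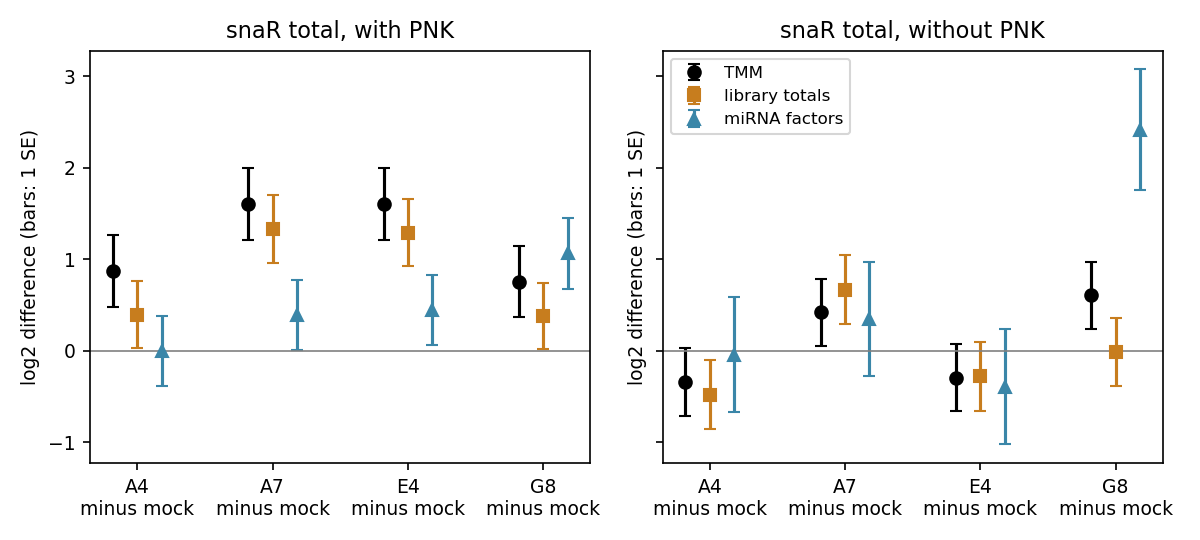
Log2 difference of the snaR total from mock, with PNK (left) and without PNK (right), under 3 scalings of the libraries, with bars of 1 SE. The A7 and E4 differences with PNK are 1.60 with TMM factors and 0.39 and 0.45 with factors from miRNA alone, and G8 without PNK runs from -0.017 with library totals to 2.41 with miRNA factors.

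Among the differences from mock, G8 without PNK moved most with scaling. Its difference from mock was 0.60 with TMM factors, -0.017 with library totals and 2.41 with miRNA factors (edgeR adjusted p = 0.0100), and the median of all features moved to -0.15, -0.72 and 1.34. Relative to the median, the G8 values were 0.75, 0.70 and 1.07. Leaving out library 3 of every group, a choice made after seeing the data, gave 1.00 for G8 (edgeR adjusted p = 0.00259) and turned the differences of A4 and E4 to 0.23 and 0.24.

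Among the THP-1 groups the snaR total did not pass the test in either arm. The test for any difference among the 4 groups gave an edgeR adjusted p of 0.191 with PNK, where 27.3% of features were called, and 0.128 without PNK, where 31.6% were. With PNK the log2 difference was -0.73 for A4 against A7 and for A4 against E4, 0.13 for A4 against G8, 0.00 for A7 against E4, and 0.86 for A7 against G8 and for E4 against G8. The edgeR adjusted p of these 6 pairs ran from 0.176 to 1. Of all features 17.4% were called for A4 against A7, 14.3% for A4 against E4, 16.2% for A4 against G8, 0.104% for A7 against E4, 11.6% for A7 against G8 and 15.3% for E4 against G8. Without PNK the differences were -0.82 for A4 against A7, -0.086 for A4 against E4, -0.89 for A4 against G8, 0.73 for A7 against E4, -0.076 for A7 against G8 and -0.81 for E4 against G8. Their edgeR adjusted p ran from 0.113 to 0.944. Of all features 11% were called for A4 against A7, 0.691% for A4 against E4, 21.1% for A4 against G8, 0.0988% for A7 against E4, 25.5% for A7 against G8 and 20.1% for E4 against G8. The 95% interval of the A7 and E4 difference with PNK, -0.79 to 0.79, still holds changes of that size in either direction. Without E4 library 3 the test across groups with PNK gave an edgeR adjusted p of 0.0439, and E4 against G8 a difference of 1.23 (0.0450). Some pairs passed under other settings. Without a filter on low counts 4 pairs with PNK were called, at -0.84 for A4 against A7 and for A4 against E4, 1.00 for A7 against G8 and 0.99 for E4 against G8 (edgeR adjusted p of 0.000362 to 0.00606), and the test across groups gave 3.81e-06. With miRNA factors A4 against G8 with PNK turned to -1.09 (edgeR adjusted p = 0.0163), and without PNK A4, A7 and E4 against G8 were -2.47, -2.09 and -2.76 (0.00975 to 0.0221). For A4 against G8 without PNK DESeq2's test gave -1.05 (adjusted p = 0.0136) and edgeR without library 3 of every group gave -0.91 (adjusted p = 0.00378), and for E4 against G8 they gave -0.98 (0.0246) and -0.82 (0.00778).

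Reads of snaR-A were also compared between locus types. Reads per SNAR-A1-named locus were set against reads per SNAR-A14-named locus in the same library, a ratio that no scaling changes. With PNK it was 0.84 ± 0.094 in A4 and 0.74 ± 0.20 in A7, and 1.03 ± 0.23 in E4 and 0.69 ± 0.22 in G8, against 0.43 ± 0.14 in mock (mean ± SD, n = 3 each). Without PNK it was 0.88 ± 0.11 in A4 and 0.62 ± 0.068 in A7, and 0.67 ± 0.40 in E4 and 0.75 ± 0.029 in G8, against 0.54 ± 0.17 in mock. With PNK the A4 and E4 libraries lay above all mock libraries, which ran from 0.268 to 0.516, and A7 and G8 overlapped them. Without PNK, E4 library 3 had 7 reads in its SNAR-A1-named loci and the lowest ratio of all, 0.227. For the SNAR-A3 place the like ratio with PNK ran from 1.28 to 1.77 in mock. It was 1.64 to 2.25 in A4, 1.26 to 1.79 in A7, 1.38 to 1.63 in E4 and 1.50 to 2.13 in G8. In both arms every group overlapped mock in that ratio. How reads with several alignments were shared among the copies is not stated. The SNAR-A1 ratio was chosen after the counts were seen, and neither ratio was tested or set against counting error.

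**Figure D4:**
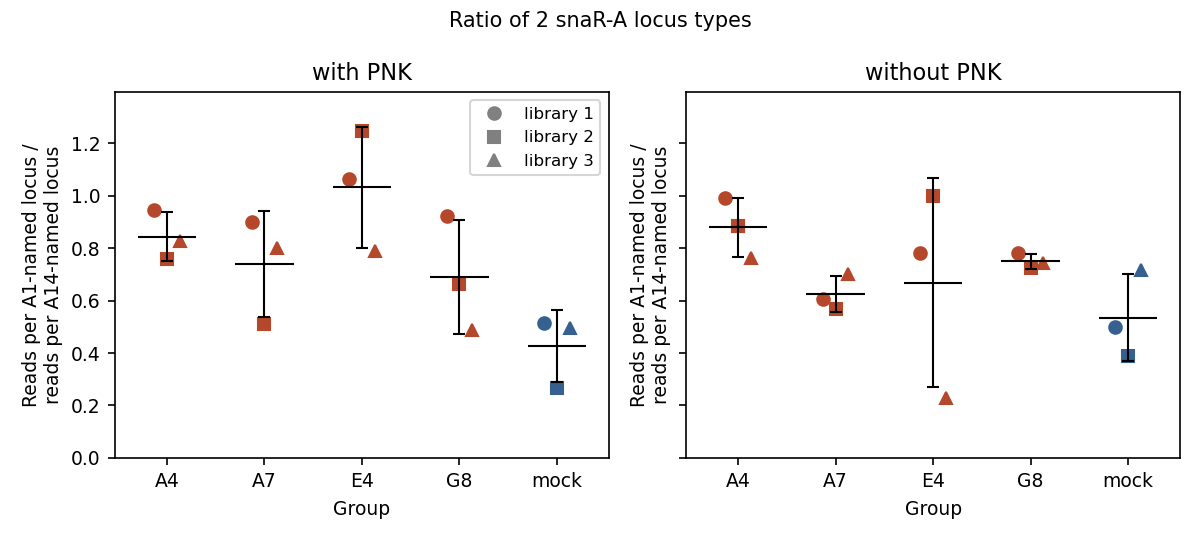
Reads per SNAR-A1-named locus (2 loci) divided by reads per SNAR-A14-named locus (9 loci) in each library, with PNK (left) and without PNK (right), with the mean and SD of 3 libraries as bars. With PNK the A4 and E4 libraries lie at 0.759 to 1.25, above mock at 0.268 to 0.516.

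The minor subfamilies took a small share of the family in every library. With PNK snaR-A made up 97.5% to 99.8% of snaR reads over the 12 THP-1 libraries and 95.1% to 97.5% in mock. Without PNK it made up 98.1% to 100% over the THP-1 libraries and 95.8% to 97.9% in mock, where the 2 ranges did not overlap. Without PNK snaR-C had 0 to 2 reads in each of the 12 THP-1 libraries, 7 in all, against 4, 7 and 3 reads in mock libraries 1, 2 and 3. With PNK snaR-C had 0 to 4 reads per THP-1 library, 11 in all, against 4, 2 and 1 in mock, and the groups overlapped. Reads of snaR-B numbered 0 to 4 per THP-1 library with PNK against 1, 7 and 4 in mock, and 0 to 3 without PNK against 5, 1 and 4 in mock. These counts are too few for a test, and 0 reads in a library allow up to 0.364 to 0.511 CPM with PNK and 0.223 to 0.306 CPM without PNK, as CPM of library totals with no TMM factor.

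Whether PNK raised or lowered snaR reads depended on the scaling. As CPM of library totals, with no TMM factor, the family stood at 50.6 ± 15.6 with PNK and 23.9 ± 9.34 without PNK in A4, at 97.0 ± 43.2 and 53.0 ± 9.17 in A7, and at 94.2 ± 49.4 and 27.5 ± 9.57 in E4 (mean ± SD, n = 3 each). It stood at 50.1 ± 2.66 with PNK and 33.0 ± 8.91 without PNK in G8, and at 38.6 ± 3.24 and 33.4 ± 8.49 in mock. With TMM factors the log2 difference, with minus without PNK, was -3.43 in A4, -3.49 in A7, -2.48 in E4, -4.50 in G8 and -4.71 in mock. With library totals it was 1.08 in A4, 0.87 in A7, 1.78 in E4, 0.60 in G8 and 0.21 in mock, and with miRNA factors 5.58, 5.26, 6.46, 4.36 and 5.43. The median of all features moved as far, from 1.39 to 1.89 with TMM factors, from 5.72 to 6.40 with library totals and from 10.1 to 11.1 with miRNA factors. That median runs over 8495 to 9878 features per group, while 2096 passed the filter on low counts among libraries without PNK, so many entered through the libraries with PNK and no snaR value is set against it. The TMM differences passed edgeR's test in all 5 groups, with adjusted p of 2.51e-29 to 2.90e-06, where the features called made up 55.7% in A4, 65.8% in A7, 69.1% in E4, 43.5% in G8 and 49.8% in mock. No direction in absolute terms is given.

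**Figure D5:**
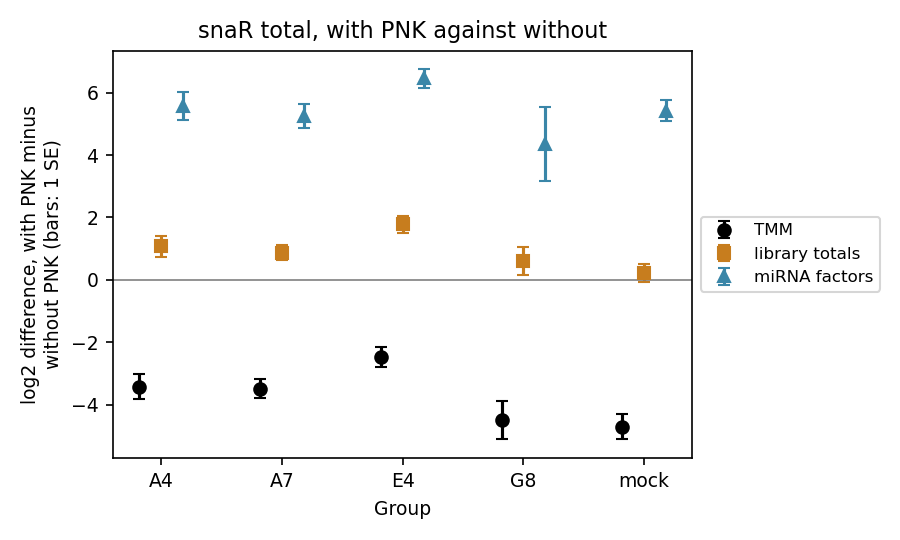
Log2 difference of the snaR total, with minus without PNK, in each group under 3 scalings, with bars of 1 SE. The sign is negative with TMM factors and positive with library totals and miRNA factors in all 5 groups.

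Whether the group differences depended on PNK was tested in 1 model over 30 libraries. The interaction of group and arm had an edgeR p of 0.0378 and an adjusted p of 0.367, where 1.46% of features were called, so the higher level of A7 and E4 over mock with PNK is not shown to differ from the level without. In that model the log2 difference with minus without PNK was -3.15 in A4 and -3.35 in A7, and -2.37 in E4 and -3.62 in G8, against -4.29 in mock. On simulated counts the interaction test recovered 18.5% of features changed 4-fold, so it can miss a change of that size. Those counts lacked the difference in makeup between the real arms, so the rate may not hold for these libraries.

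Other Pol III transcripts were followed as a list of 15: vault RNAs, Y RNAs, 7SL, 7SK, RMRP, RPPH1, U6atac and BC200. With PNK 14 were tested against mock, and 7 rose in A4 and 2 in A7, and 4 in E4 and 2 in G8, with none lower, where 8.4%, 3.81%, 5.95% and 4.09% of all features rose in those groups. The list's median log2 difference was 1.06 in A4 and 0.55 in A7, and 0.63 in E4 and 0.34 in G8, against medians of all features of 0.00, -0.01, -0.02 and 0.04. Several A4 calls leaned on library 2. There RN7SL1 stood at 957 CPM, against 122 and 85.2 in libraries 1 and 3, and RN7SL2 at 914 against 110 and 83.2. VTRNA1-3 stood at 13.9 CPM against 3.34 and 3.77, and RMRP at 911 against 427 and 255. RNY1, also called, was lowest in library 2, at 2195 CPM. Without PNK 13 were tested, and 1 fell in A4, none passed in A7, 1 fell in E4, and 4 rose and 2 fell in G8. Of all features 1.38% fell in A4 and 2.91% in E4, and in G8 10.4% rose and 13.8% fell. These directions hold for TMM factors. In G8 without PNK 9 rose and none fell with miRNA factors, where the median of all features was 1.34. With library totals none rose and 4 fell, at a median of -0.72. RNY3, a Y RNA, stood at 1723, 1142 and 240.4 CPM in G8 libraries 1, 2 and 3 without PNK, against 277.6, 260.9 and 500.6 CPM in mock. RN7SK, the 7SK RNA, stood at 419, 271 and 110.2 CPM in G8, against 204, 119 and 147 CPM in mock. Libraries 1 and 2 of G8, those of low TMM factors, were thus high and library 3 was not. With PNK and miRNA factors, 5 rose and 3 fell in A4, 4 fell in E4, 1 fell in A7 and 1 rose in G8. The medians of all features were then -0.92 in A4, -1.18 in E4, -1.13 in A7 and 0.21 in G8. With PNK and library totals, 5 rose and 2 fell in A4, 1 rose and 1 fell in E4, 1 rose in A7 and 1 fell in G8. Here the medians were -0.49 in A4, -0.36 in E4, -0.25 in A7 and -0.31 in G8. The share of all features called under these scalings is not given, so the counts are not read as a result about the list. The members called higher together with the snaR total were VTRNA1-2 and RNY5 in A7, and VTRNA1-2, RMRP, RNY1 and RNY5 in E4. VTRNA1-2, a vault RNA, stood with PNK at 20.0 ± 2.76 CPM in A7 and 19.1 ± 1.57 CPM in E4, against 11.9 ± 2.68 CPM in mock. Its difference from mock was 0.75 in A7 (edgeR adjusted p = 0.0300) and 0.69 in E4 (0.0363), and turned to -0.37 and -0.46 with miRNA factors. RNY5, the Y5 RNA bound by Ro60, stood at 492 ± 154 CPM in A7 and 557 ± 99.2 CPM in E4, against 197 ± 6.71 CPM in mock. Its log2 difference was 1.32 in A7 (edgeR adjusted p = 0.0198) and 1.50 in E4 (0.00713), and 0.15 and 0.34 with miRNA factors. RNY1 had 2501 ± 266 CPM in E4 and 1126 ± 474 CPM in mock, and RMRP, the RNA of RNase MRP, had 277 ± 90.9 CPM in E4 and 106 ± 31.3 CPM in mock. RNY1 differed by 1.15 in E4 (edgeR adjusted p = 0.0295) and RMRP by 1.39 (0.0322), and with miRNA factors by -0.06 and 0.24. Y RNA and 7SL can share reads with pseudogenes, and their counts are uncertain to that extent.

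VTRNA2-1, also called nc886, is a Pol III transcript that binds the kinase PKR. With PNK it did not pass against mock in any group, at 4509 ± 1022 CPM in A4 and 8135 ± 1834 in A7, and 6595 ± 989 in E4 and 4661 ± 1563 in G8, against 6394 ± 4501 CPM in mock. Without PNK it stood at 175 ± 25.2 CPM in A4 and 869 ± 349 in A7, and 152 ± 14 in E4 and 263 ± 102 in G8, against 603 ± 259 CPM in mock. It fell in A4 by 1.78 (edgeR adjusted p = 0.0467), in E4 by 1.99 (0.0168) and in G8 by 1.20 (0.0397) on the log2 scale, where the snaR total did not pass. With miRNA factors none of the 3 passed, and the G8 value turned to 0.79. With DESeq2 size factors A4 did not pass, at -1.76 (edgeR adjusted p = 0.0563).

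Features of most like pattern were ranked by Pearson's r of log2 CPM with the snaR total over the 15 libraries of an arm, as a description only, since libraries of a group share their cells and scaling. Only features with a mean log2 CPM at or above the median of those tested were ranked, leaving out snaR and lnc-IZUMO2-2. With PNK the top 5 of 5591 were TRN-GTT1-1 (r = 0.817, Spearman's rho = 0.718), TRR-CCT4-1 (0.806, 0.786), TRV-AAC6-1 (0.795, 0.771), lnc-TPP1-2 (0.793, 0.829) and MIR92B (0.786, 0.771). The first 3 are tRNA genes, a class that made up 5.53% of the features ranked. Without PNK the top 5 of 1047 were all tRNA gene copies, 3 of TRG-TCC2-4 (r = 0.865, 0.808 and 0.740) and 2 of TRA-AGC8-2 (r = 0.861 and 0.789), where tRNA made up 23.6%. The copies of each tRNA can share reads and do not count as separate examples.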

How the data were processed

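The authors deposited 1 table of read counts per annotated row for 30 libraries, whole numbers that were not normalized. Per the submitters' processing notes, Trim Galore, FastQC, Bowtie2 2.3.5.1, SAMtools 1.9, deepTools 3.2.1, bedtools 2.28.0 and the build GRCh38 were used. How reads with several alignments were treated is, in the sources used here, not stated. Per the labels' protocols, the mirVana PARIS kit enriched small RNA, as described for THP-1, and libraries were made with the NEBNext Small RNA kit. No sample column was left unused.

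Overlapping rows were reduced to 75197 of 175946, and snaR rows were summed by letter and over the family. The members and lists were chosen with earlier results of these data known. The counts entered edgeR's quasi-likelihood test (edgeR 4.0.16, R 4.3.3) after filterByExpr and with TMM factors, with Benjamini-Hochberg adjustment over all features and a threshold of 0.05: 15 libraries per arm against mock (11185 features with PNK, 2096 without), 12 THP-1 libraries per arm, 6 for PNK, 30 for the interaction. The snaR total stayed out of library sizes and factors. CPM values carry the TMM factors, and a prior count of 2 was added for log2 CPM. Intervals are 1.96 SE, a normal multiple, and may be too narrow where few libraries set the spread. Intervals and limits cover counting error only where they rest on reads, which have no molecular identifiers. The edgeR fits were run on simulated counts with 200 features changed 4-fold, and the first comparison of each fit was scored. Every other feature was drawn around 1 mean for all libraries of a fit. The difference in makeup between arms was thus not simulated, and the rates for PNK and the interaction may not hold for the real libraries. Of the changed features that passed the filter, the interaction recovered 18.5% and PNK in G8 28.7%. The other fits recovered 57.3% to 86.0%. False calls made up 3.57% to 7.26% of calls. Other steps were not simulated. Alternatives were DESeq2 1.42.0 and its size factors, library totals, factors from miRNA, no filter, a replicate block, all 39 rows summed, G8 libraries 1 and 2 left out, each replicate left out and, added after seeing the data, library 3 of each group left out. The text names the family, its subfamilies, their highest rows, the called Pol III transcripts and the 5 features of most like pattern.

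Replicate numbers come from the titles. Every correlation of deviations between same-numbered libraries exceeded 0.1 for A4 and E4 without PNK (0.37 to 0.69) and for A7 and mock without PNK (0.16 to 0.48). The same numbering without PNK gave negative correlations with mock for A4 (-0.72 to -0.35), E4 (-0.63 to -0.27) and G8 (-0.44 to -0.20). The main tests did not pair libraries. The replicate block, run as an alternative, changed neither the A4 against E4 nor the A7 against mock call.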

Additional observations from a re-analysis of the deposited data

How the results depend on the processing

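Of 235 values of the 28 results under alternatives other than leaving out 1 replicate, 192 kept their direction and their side of the threshold. These include the settings without library 3 of each group and without G8 libraries 1 and 2. With 1 replicate left out, 187 of 204 values did so. The replicate block and the sum of all 39 rows changed no call or direction in 28 of 28 results, and leaving out G8 libraries 1 and 2 none in 11, with no value for PNK in G8. In the other settings the cause was not tested. With miRNA factors the A7 and E4 differences from mock with PNK were 0.39 and 0.45 and no longer called, and A4 turned to -0.0077. Without PNK the call appeared for G8 against mock (2.41), A4, A7 and E4 against G8 (-2.47, -2.09 and -2.76) and the test across groups (adjusted p = 0.0106), and A4 against E4 turned to 0.29. With PNK the values turned to -1.09 for A4 against G8, -0.12 for A7 against E4, -0.75 for A7 against G8 and -0.63 for E4 against G8. The PNK difference turned to 5.58 in A4, 5.26 in A7, 6.46 in E4, 4.36 in G8 and 5.43 in mock. With library totals it turned to 1.08 in A4, 0.87 in A7, 1.78 in E4, 0.60 in G8 and 0.21 in mock, and without PNK A7 against G8 turned to 0.68 and G8 against mock to -0.017. DESeq2 size factors called A4 against G8 without PNK (-1.05). DESeq2's test without PNK called A4 against G8 (-1.05), E4 against G8 (-0.98) and the test across groups (adjusted p = 0.0135).

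Without a filter, calls with PNK appeared for A4 against A7 (-0.84), A4 against E4 (-0.84), A4 against mock (0.79), A7 against G8 (1.00), E4 against G8 (0.99) and the test across groups (adjusted p = 3.81e-06), and A7 against G8 without PNK turned to 0.072. Without library 3 of each group the calls appeared without PNK for G8 against mock (1.00), A4 against G8 (-0.91), E4 against G8 (-0.82) and the test across groups (adjusted p = 0.00795), and A4 against mock turned to 0.23, E4 against mock to 0.24, and A7 against E4 with PNK to -0.22. Leaving out 1 replicate gave -0.40 to 0.19 for A4 against E4 and -0.32 to 0.12 for A7 against G8 without PNK. With PNK it gave 1.06 to 1.87 for A7 against mock, 1.29 to 1.97 for E4 against mock, -0.0099 to 0.33 for A4 against G8, -0.54 to 0.33 for A7 against E4, 0.54 to 1.23 for E4 against G8, and adjusted p of 0.0439 to 0.290 across groups. The interaction was not called under any alternative run, with adjusted p of 0.182 to 0.611 when 1 replicate is left out. Totals of 155 to 1014 snaR reads per library limit the subfamilies other than snaR-A to description.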
